A study of Homo sapiens with 6 samples.

Results

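The expression of 44 cell cycle genes was measured by RNA sequencing in H1 cells, an established human embryonic stem cell line, at day 2 of hematopoietic differentiation, with and without SNAI1 deletion. The genes were chosen by name as cyclins, cyclin-dependent kinases and their CDC25 phosphatases (15 genes), kinase inhibitors with RB1 and E2F factors (9), replication genes (10), mitosis genes (8) and the MYC family (2), out of 37803 gene symbols found once in both deposited tables. The 3 groups were H1 cells without the deletion (WT) and the SNAI1-deleted groups SNAI1_KO_1 and SNAI1_KO_2, with 2 libraries each, 1 in each table. All 6 were grown for 2 days in medium with 40 ng/ml activin A and 50 ng/ml BMP4 by the labels, while the methods of the study give these doses the other way round. The study describes a pair of CRISPR/Cas9 knockout lines with frameshift mutations, and the leading number of the knockout titles was taken as the group without matching it to a line. Nothing in the labels says that the 2 libraries of a group came from separate cultures, so p-values measure only the spread between these samples. Levels are in FPKM, which scales fragments by gene length and library size, and come in the order WT, SNAI1_KO_1 and SNAI1_KO_2, for the first table and then for the second. SNAI1 itself, whose protein is a zinc-finger repressor that drives epithelial cells towards a mesenchymal state, was at 37.1, 51.6 and 68.6 FPKM and then at 36.4, 47.8 and 55.0. Its mRNA was thus higher in every knockout library (log2 difference +0.58 ± 0.07, SE; limma adjusted p = 0.00461), and an mRNA level does not check a frameshift label.

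The cell cycle is run by cyclin-dependent kinases, which are active only when bound to a cyclin. D cyclins with CDK4 and CDK6, then E cyclins with CDK2, phosphorylate the RB1 protein and so release E2F factors, which switch on the genes of DNA replication, while A and B cyclins with CDK1 carry the cell through the second gap phase and mitosis. The INK4 inhibitors (CDKN2A, CDKN2B, CDKN2C) bind CDK4 and CDK6, and the CIP/KIP inhibitors (CDKN1A, CDKN1B) bind cyclin-kinase complexes more broadly. Human pluripotent cells are known for a short first gap phase, which lengthens as they differentiate. RNA from a mixed culture cannot tell fewer cells in a phase from less RNA per cell, and cell cycle phase was not measured here.

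Promoters of replication genes are known for E2F elements, and those of mitosis genes for the cell cycle genes homology region, often with CCAAT boxes. Windows of 300 bases, from 250 before to 50 after a transcription start, were taken from RefSeq (GRCh38.p14) by symbol. They were found for 36 of the 44 genes, in 55 windows of 35116 in all, while CCND1, CCND2, CCNE2, CDK2, MCM4, MCM5, AURKA and MYC were not matched. The windows below belong to the 5 genes whose knockout difference passed the test with any 1 library left out (CDK1, MCM2, MYCN, CCND3 and CDKN2B), with CDC20 added as a gene of mitosis. Each is written 5′ to 3′ on the strand of the gene, at chr10:60778081-60778380, plus strand (CDK1, the first of 2 windows), chr1:43358731-43359030, plus strand (CDC20), chr3:127598161-127598460, plus strand (MCM2), chr2:15940300-15940599, plus strand (MYCN), chr6:42048639-42048938, minus strand (CCND3, the first of 3 windows) and chr9:22009256-22009555, minus strand (CDKN2B). Capitals mark matches on either strand to 5 elements, namely the E2F element (TTTCCCGC, TTTGGCGC, TTTCGCGC or TTTGCCGC), the cell cycle genes homology region (CHR, TTTGAA), the CCAAT box (CCAAT), the E-box bound by MYC with MAX (CACGTG) and the E-box bound by SNAI1 (CAGGTG).
CDK1: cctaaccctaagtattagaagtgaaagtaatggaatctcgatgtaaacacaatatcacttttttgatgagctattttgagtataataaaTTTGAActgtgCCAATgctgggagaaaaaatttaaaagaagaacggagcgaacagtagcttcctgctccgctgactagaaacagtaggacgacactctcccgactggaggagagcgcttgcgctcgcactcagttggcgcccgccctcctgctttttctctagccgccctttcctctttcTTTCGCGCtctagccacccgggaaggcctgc
CDC20: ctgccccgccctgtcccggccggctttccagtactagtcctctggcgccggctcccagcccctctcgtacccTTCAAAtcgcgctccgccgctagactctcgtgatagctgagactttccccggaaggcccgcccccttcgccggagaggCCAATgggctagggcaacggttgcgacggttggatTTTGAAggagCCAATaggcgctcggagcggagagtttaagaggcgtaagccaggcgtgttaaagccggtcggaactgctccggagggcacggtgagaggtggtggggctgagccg
MCM2: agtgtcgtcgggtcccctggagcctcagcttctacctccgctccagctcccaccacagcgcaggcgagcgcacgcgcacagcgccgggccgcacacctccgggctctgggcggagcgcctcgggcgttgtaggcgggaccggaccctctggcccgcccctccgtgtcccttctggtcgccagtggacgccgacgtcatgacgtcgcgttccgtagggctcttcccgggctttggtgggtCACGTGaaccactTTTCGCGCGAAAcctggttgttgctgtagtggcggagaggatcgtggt
MYCN: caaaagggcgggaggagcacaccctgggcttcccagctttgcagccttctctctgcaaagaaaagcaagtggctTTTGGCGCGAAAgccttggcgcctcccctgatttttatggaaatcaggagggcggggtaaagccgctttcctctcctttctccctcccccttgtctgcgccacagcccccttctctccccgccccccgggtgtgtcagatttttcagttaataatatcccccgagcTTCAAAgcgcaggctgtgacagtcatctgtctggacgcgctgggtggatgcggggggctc
CCND3: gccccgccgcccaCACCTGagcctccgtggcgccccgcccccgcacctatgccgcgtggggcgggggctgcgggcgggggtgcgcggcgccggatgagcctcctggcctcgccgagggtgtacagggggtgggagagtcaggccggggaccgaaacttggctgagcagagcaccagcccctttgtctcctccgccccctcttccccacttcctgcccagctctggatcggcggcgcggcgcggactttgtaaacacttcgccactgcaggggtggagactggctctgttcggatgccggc
CDKN2B: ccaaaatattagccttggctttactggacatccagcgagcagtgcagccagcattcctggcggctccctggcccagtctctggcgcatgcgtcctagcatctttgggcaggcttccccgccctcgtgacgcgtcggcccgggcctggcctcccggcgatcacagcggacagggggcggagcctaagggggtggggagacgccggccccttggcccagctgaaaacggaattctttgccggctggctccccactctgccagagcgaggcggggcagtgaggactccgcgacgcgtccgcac

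The CDK1 window held an E2F element, a CHR and a CCAAT box, and the CDC20 window held 1 CHR on each strand and a pair of CCAAT boxes. In MCM2 and MYCN, matches to the E2F element on opposite strands overlapped within 1 run of capitals. The MCM2 window also held a CACGTG close to this run, and the MYCN window a CHR well downstream of it. CCND3 held the letters of the SNAI1 E-box near the far end of its window, and CDKN2B held none of the 5 elements in these 300 bases. The E2F letters stood in 15 of the 55 windows (27.3%) against 3.31% of all windows, and they were found in all 8 replication genes with a window and in 0 of 7 mitosis genes. The CHR stood in 12 windows (21.8%, against 15.2% of all) and in 5 of the 7 mitosis genes (BUB1B, CDC20, MKI67, PLK1 and TOP2A), but in 0 of the 8 replication genes. The CCAAT box was in 58.2% of the member windows and 34.6% of all windows. CACGTG was in 18.2% against 7.26%, and the SNAI1 E-box letters were in 16.4% against 20.6%. Windows of 1 gene can overlap, and a match of letters is a description, not a binding site.

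Cell cycle genes moved in both directions after SNAI1 deletion. Of the 44, 42 had a mean of at least 1 FPKM and were tested on log2(FPKM + 1), while CDKN2C and E2F2 were below that level. With both knockout groups averaged, 8 genes rose, 16 fell and 18 did not pass an adjusted p of 0.05 (limma, Benjamini-Hochberg over 13909 genes). Among all genes tested, 31.3% were called, 15.8% as higher and 15.4% as lower, beside 57.1%, 19.0% and 38.1% of the cell cycle genes. The cell cycle genes were expressed above the usual level, with a median mean of 38.2 FPKM against 10.3 for all genes tested, and their median SE was 0.07 against 0.10. Among genes with a mean of at least 10 FPKM, 35.1% were called, against 20 of 36 cell cycle genes (55.6%). The median log2 difference was -0.16 for the cell cycle genes and -0.05 for all genes tested.

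The changes were modest. Of the 24 called genes, 5 had a log2 difference of 0.5 or more, namely CCND3, CDK6, MYCN, CDKN2A and CDKN2B. All 24 moved the same way in the 4 within-table differences. The genes were called on these same differences, which share WT libraries, so this is no separate check. In 12 of the 24 genes the 4 knockout libraries lay outside both WT libraries. Over the tested genes, called or not, 5 (11.9%) had all knockout libraries above both WT libraries and 9 (21.4%) had all of them below, against 16.9% and 17.1% of all genes, of which 31.3% were called. The tables also differed: in 26 of the 42 tested genes, called or not, the WT libraries of the 2 tables differed by more than the knockout difference. The share of all genes with such a difference was not counted. CCND1, for example, was 2.09 times as high in the second WT library as in the first, while CDK1 was at 0.620 times its first level. In such differences the libraries and the processing of the tables cannot be told apart. Knockout libraries were therefore set against the WT library beside them, by a block for the table in the fit. Without the block, 3 of the 24 genes still passed the test (CDKN2A, CDKN2B and MYCN). With 1 library left out 6 to 14 genes passed, the fewest without either WT library, and with no filter on low values 12 passed. The calls of CCND3, CDK1, CDKN2B, MCM2 and MYCN held in all 6 fits with a library left out, and each of the other called genes lost its call in at least 1.

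**Figure D1:**
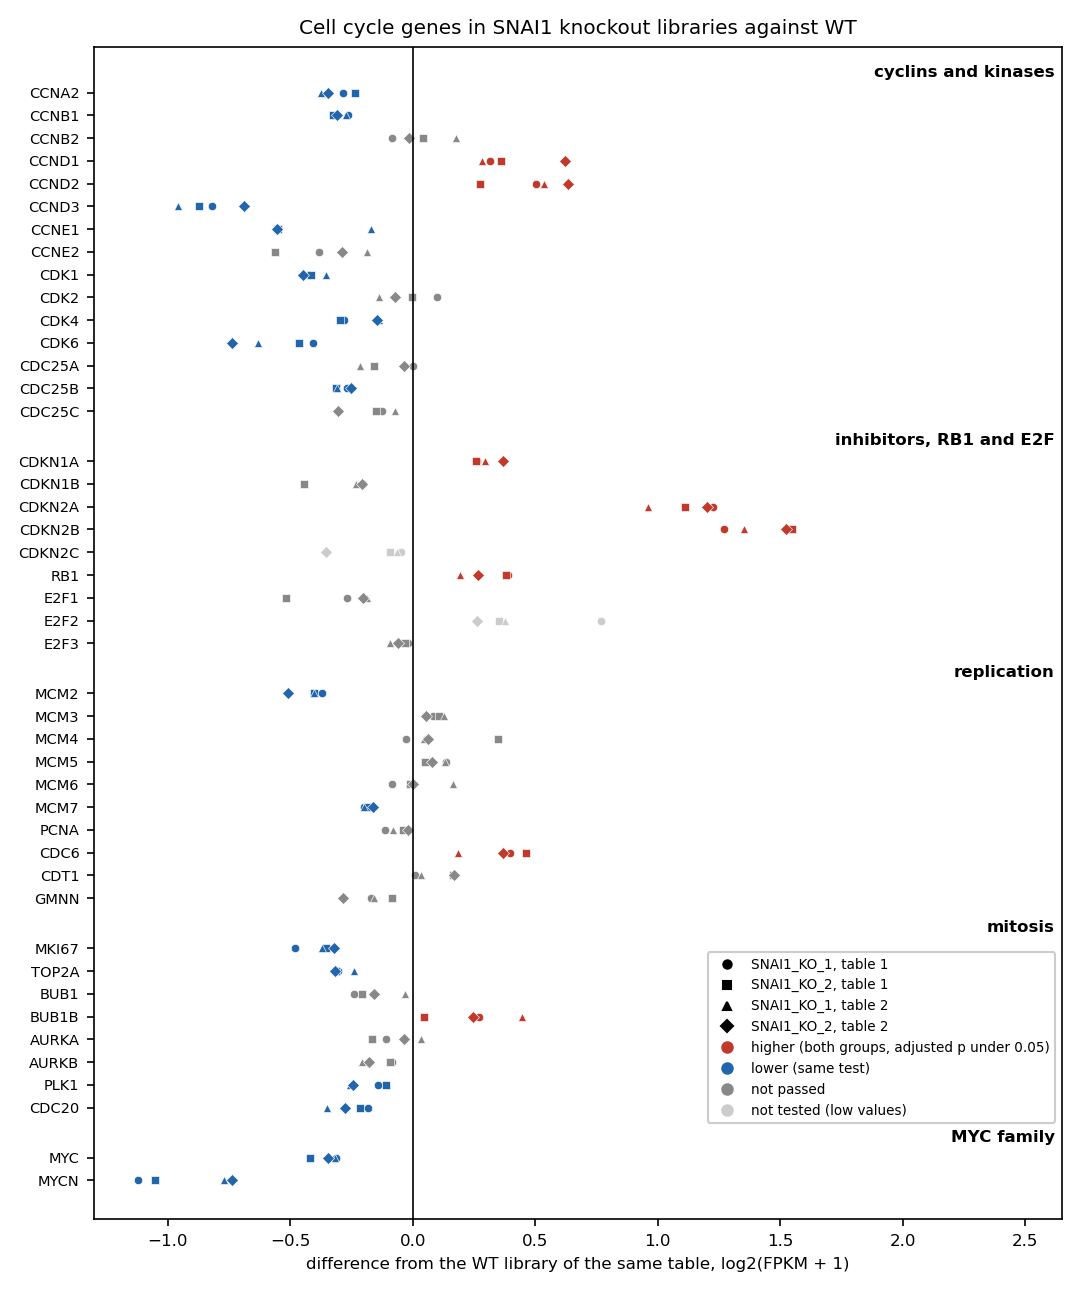
Difference of each knockout library from the WT library of its own table, in log2(FPKM + 1), for the 44 cell cycle genes by class. Each point is 1 library, and colours give the test of both knockout groups against WT (8 higher, 16 lower, 18 not passed, 2 not tested); the cyclins and kinases lie mostly left of 0, and CDKN2A and CDKN2B lie farthest right.

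Each knockout group was also set against WT on its own. SNAI1_KO_1 alone had 16 called genes, 4 higher and 12 lower, where 23.9% of all genes were called (13% higher and 10.9% lower). SNAI1_KO_2 alone had 19, 6 higher and 13 lower, where 25.5% of all genes were called (13.5% higher and 12% lower). These comparisons share their WT libraries. Both called 15 of the genes, SNAI1_KO_1 alone added BUB1B, SNAI1_KO_2 alone added CCND1, CCNE1, CDKN1A and CDC6, and CDK4, CDC25B, RB1 and PLK1 passed in the combined comparison only. With 1 library left out, 2 to 13 genes were called in SNAI1_KO_1 and 3 to 13 in SNAI1_KO_2. Between the knockout groups, 0 cell cycle genes and 0% of all genes were called by limma, with 1 cell cycle gene (BUB1B) and 521 of all genes at an unadjusted p under 0.05. The 42 differences of SNAI1_KO_2 minus SNAI1_KO_1 ran from -0.21 to +0.23, with a median SE of 0.08.

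The cells around these genes also differed between the groups. FPKM summed over 6 pluripotency markers was 907 to 1014 in WT and 1140.5 to 1441 in the knockout libraries. POU5F1, NANOG and DPPA4 were called higher, while SOX2, LIN28A and DNMT3B did not pass. Over 8 markers of the primitive streak and mesoderm the sums were 1599 to 1671 and 1091 to 1172, with 6 genes lower and T (brachyury) higher. Over 5 endoderm markers the sums were 2826 to 3340 and 1274 to 1932, with CER1 and FOXA2 lower and SOX17 higher. Over 6 amnion and trophoblast markers the sums were 245 to 270 and 84.8 to 96.7, with TFAP2A and GABRP higher and GATA3 and HAND1 lower. ISL1 was not tested, nor was VTCN1, which was at or near 0. HAND1 is also among the 8 markers of the primitive streak and mesoderm, so it enters both sums. Neural markers summed to 81.3 to 95.9 and 50.4 to 74.2, nearly all of it OTX2, and SOX1 was listed at 0 in 5 of the 6 libraries. OTX2 was the neural marker tested and did not pass (-0.40 ± 0.14; limma adjusted p = 0.0929). The other 4 lists held genes that differed between the same groups as the cell cycle genes, and the part of all 5 lists in the differences below was not tested.

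Among cyclins and kinases, 10 of 15 genes were called (66.7%), 2 higher (13.3%) and 8 lower (53.3%). Of all genes tested, 31.3% were called, 15.8% higher and 15.4% lower. The mitotic pair came down together. CDK1, the kinase that starts mitosis, was at 104, 77.2 and 77.5 FPKM in the first table, followed by 64.3, 50.1 and 46.9 in the second. Within a table every knockout library held 0.729 to 0.779 of the WT level, although the first-table knockout values lay above the second-table WT value (log2 difference -0.41 ± 0.05, SE; limma adjusted p = 0.00392). CCNB1, its cyclin partner in mitosis, read 165, 137 and 131 FPKM, then 131, 109 and 106. All knockout libraries were at 0.797 to 0.833 of their WT library (-0.29 ± 0.04; adjusted p = 0.00617). CCNA2, the cyclin of DNA synthesis and the following gap, was at 73.9, 60.5 and 62.7, then at 52.8, 40.5 and 41.3 FPKM (-0.31 ± 0.05; adjusted p = 0.0113). The gene on its opposite strand, EXOSC9, was also lower in every knockout library of each table (36.6, 32.0 and 31.5, then 30.6, 26.5 and 27.4 FPKM), and the values used here do not state that strand was kept in counting.

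CCNB2, the second B cyclin, gave no such difference. It was at 50.2, 47.2 and 51.6 FPKM in the first table and at 32.1, 36.4 and 31.8 in the second, and the groups overlapped within each table (+0.03 ± 0.08; adjusted p = 0.813). Its share of the summed FPKM of CCNA2, CCNB1 and CCNB2 was 14.9% and 17.4% in WT and 17.8% to 21.0% in the knockout libraries. The summed level itself was 289 FPKM in the first WT library beside 245 in each knockout library, and 216 in the second beside 185 and 179.

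The D cyclins did not move as one. CCND3 fell, at 28.1 FPKM in WT against 15.5 and 14.9 in the knockout groups of the first table, and at 34.0 against 17.0 and 20.7 in the second. All 4 knockout libraries lay below both WT libraries, at 0.50 to 0.61 of the one in their table (-0.83 ± 0.09; limma adjusted p = 0.00233). CCND1, the D cyclin induced by mitogens, rose from 52.9 FPKM to 66.1 and 68.2 in the first table and from 111 to 135 and 171 in the second (+0.40 ± 0.07; adjusted p = 0.0147), although the difference between the tables was larger than that between the groups. CCND2 rose from 11.4 FPKM to 16.7 and 14.0, and from 10.5 to 15.7 and 16.9, with no overlap between groups (+0.49 ± 0.10; adjusted p = 0.0200).

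The D cyclins together thus stayed near or above the WT level, at 92.4 FPKM in WT against 98.3 and 97.1 in the first table and 155 against 168 and 209 in the second. Their make-up shifted. CCND3 held 30.4% of the sum in the first WT library and 15.8% and 15.4% in the knockout libraries beside it, and 21.9% against 10.2% and 9.94% in the second table. CCND1 went from 57.2% to 67.3% and 70.2%, and from 71.3% to 80.5% and 81.9%. These shares compare FPKM, which is scaled by gene length, and they were not tested.

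**Figure D2:**
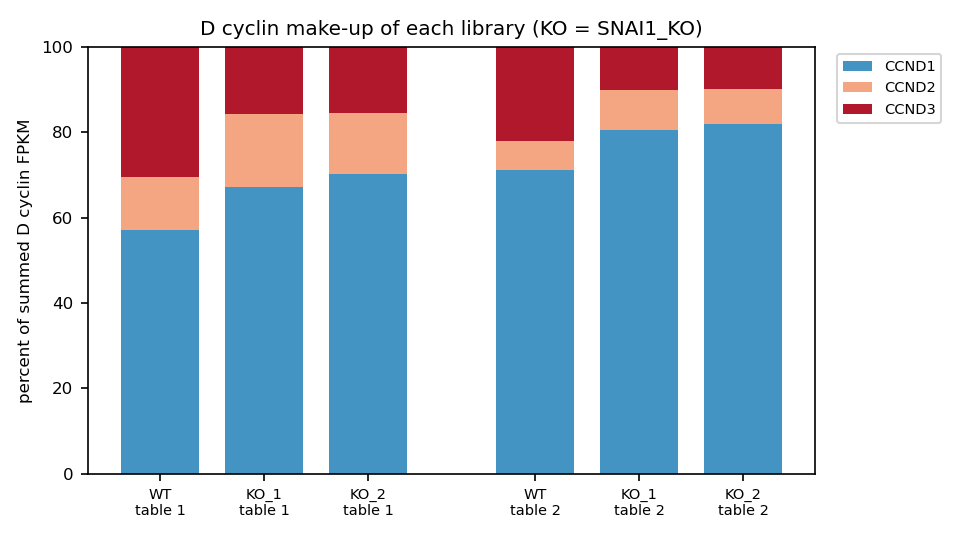
Share of each D cyclin in the summed FPKM of CCND1, CCND2 and CCND3 (percent of the sum, y axis from 0 to 100) in each of the 6 libraries, by table. CCND3 takes 21.9% to 30.4% of the WT bars and 9.94% to 15.8% of the knockout bars.

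The partners of the D cyclins were also lower. CDK6 was at 10.6 FPKM in WT against 7.72 and 7.40 in the first table and at 11.2 against 6.86 and 6.31 in the second, so that every knockout library lay below both WT libraries (-0.56 ± 0.10; limma adjusted p = 0.0115). CDK4, by far the more abundant of the pair with 90.5% to 94.1% of their summed FPKM, was at 146, 120.2 and 119 FPKM and then at 107, 96.7 and 96.3 (-0.21 ± 0.05; adjusted p = 0.0331). This is a smaller difference that no longer passed when any 1 library was left out (adjusted p up to 0.201). CDK2, the partner of E and A cyclins, stayed between 45.7 and 51.5 FPKM in all 6 libraries (-0.03 ± 0.07; adjusted p = 0.784). On its opposite strand, PMEL was at 16.4 FPKM in WT against 34.2 and 35.5 in the first table and at 13.2 against 39.0 and 43.5 in the second.

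CCNE1, the cyclin of entry into DNA synthesis, was at 22.5 FPKM against 15.0 and 15.1 in the first table and at 18.4 against 16.3 and 12.2 in the second (-0.46 ± 0.11; limma adjusted p = 0.0280). The groups did not overlap, and the result was lost in 5 of the 6 fits with 1 library left out. CCNE2 was much lower, between 1.76 and 3.59 FPKM, and did not pass (-0.35 ± 0.13; adjusted p = 0.0921). Of the CDC25 phosphatases, which remove the inhibitory phosphates from the kinases, CDC25B fell from 13.4 FPKM to 10.9 and 10.5 and from 14.7 to 11.7 and 12.2 (-0.29 ± 0.07; adjusted p = 0.0391), which was lost with any 1 library left out (adjusted p up to 0.174). CDC25A (29.1 to 39.0 FPKM) and CDC25C (7.11 to 12.1 FPKM) gave log2 differences of -0.10 ± 0.08 and -0.16 ± 0.09 that did not pass.

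Of 14 other cyclins and kinases tested from a wider list, 3 were higher and 2 lower, with a median log2 difference of -0.10, and the called share of 35.7% was near the 31.3% of all genes. CCNG2, an unusual cyclin tied to cell cycle arrest, fell from 16.5 FPKM to 7.49 and 6.58 and from 15.0 to 7.11 and 7.33 (-1.04 ± 0.09; limma adjusted p = 0.00145). WEE1, the kinase that holds CDK1 inactive, rose from 22.4 FPKM to 32.4 and 30.5 and from 19.2 to 31.7 and 36.6 (+0.64 ± 0.11; adjusted p = 0.00985). CCNA1, the A cyclin best known from the germ line, was at 0.241 and 0.489 FPKM in WT and at 1.44 to 2.32 in the knockout libraries (+1.01 ± 0.20; adjusted p = 0.0164). Its mean reached the 1 FPKM needed for testing only through the knockout libraries. CCNF, a cyclin that acts in a ubiquitin ligase, was lower by a log2 difference of -0.33 ± 0.07 (adjusted p = 0.0202).

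The inhibitors, RB1 and E2F factors gave 4 genes higher (57.1%) and 0 lower out of 7 tested, beside 15.8% and 15.4% of all genes. The neighbouring INK4 genes had the largest rises. Their WT means were under 1 FPKM, at 0.281 for CDKN2A and 0.443 for CDKN2B. They reached the mean of 1 FPKM needed for testing only through the knockout libraries, and both are counted in the 57.1%. A gene as low as this in every group would not have been tested. CDKN2B, which encodes p15, was at 0.311, 2.16 and 2.83 FPKM in the first table, followed by 0.575, 3.02 and 3.53 in the second. The knockout libraries were all above both WT libraries (+1.42 ± 0.13 on the log2(FPKM + 1) scale; limma adjusted p = 0.00146), and this scale understates the change of a gene so low. CDKN2A was at 0.102, 1.57 and 1.38 FPKM and then at 0.461, 1.84 and 2.36 (+1.12 ± 0.16; adjusted p = 0.00575). Its transcripts encode p16 and, from another reading frame, the p53 activator p14ARF, and gene-level values do not tell them apart.

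Both genes thus moved from under 1 FPKM to a few FPKM, still far below their target kinase CDK4. The antisense transcript of the locus, CDKN2B-AS1, was listed at 0 in all 6 libraries. With the first WT library left out, CDKN2A had a limma adjusted p of 0.0532, while CDKN2B stayed at or under 0.0234 with any 1 library left out. CDKN2C, the INK4 gene for p18, was not tested and lay between 0.132 and 0.819 FPKM.

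CDKN1A, which encodes the p53-induced inhibitor p21, rose from 13.1 FPKM to 16.0 and 15.9 and from 20.1 to 24.9 and 26.3 (+0.30 ± 0.07; limma adjusted p = 0.0259), and this was lost in each of the 6 fits with 1 library left out. CDKN1B, which encodes p27, was at 14.0 FPKM in both WT libraries and at 12.0 FPKM or less in the knockout libraries. All 4 knockout libraries were below both WT libraries, but the difference did not pass (-0.27 ± 0.09; adjusted p = 0.0736). Of the summed FPKM of the 5 inhibitors, CDKN1B made up 50.4% and 38.9% in WT and 26.9% to 37.6% in the knockout libraries, while CDKN2A and CDKN2B, at 0.366% to 1.60% each in WT, made up 4.37% to 9.37% each.

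**Figure D3:**
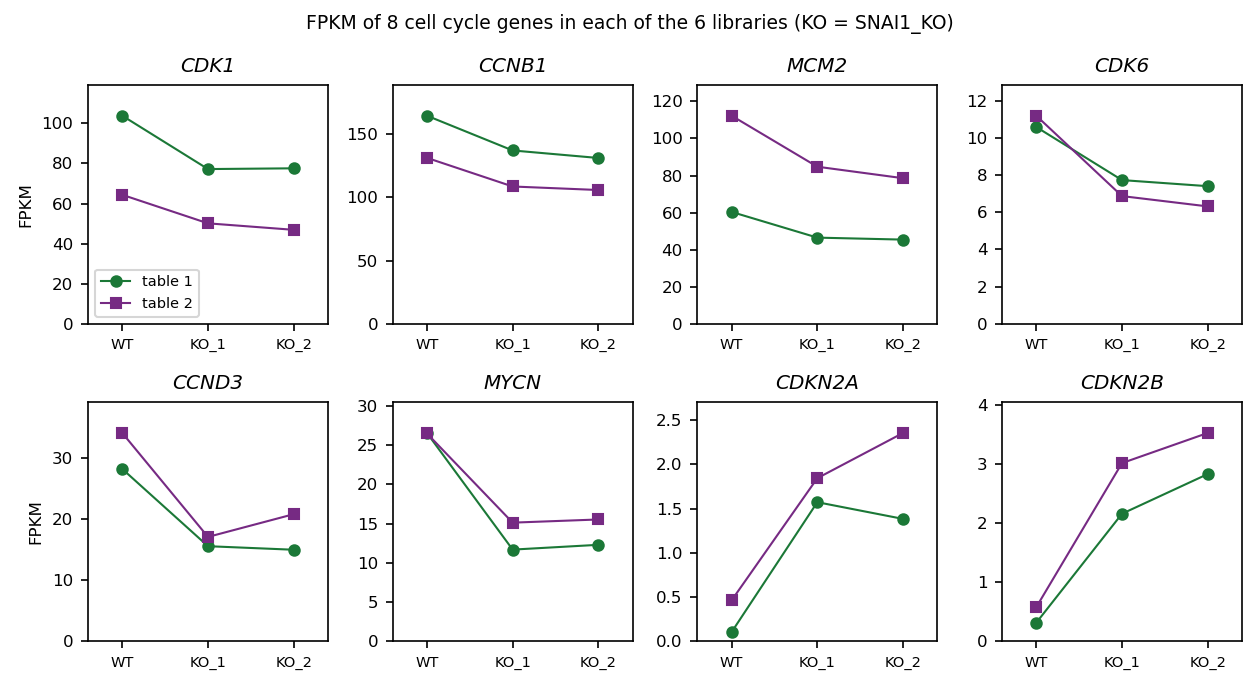
FPKM (y axes from 0, each on its own scale) of 8 cell cycle genes in WT, SNAI1_KO_1 and SNAI1_KO_2, with 1 point per library and lines joining the libraries of a table. CDK1, CCNB1, MCM2, CDK6, CCND3 and MYCN are lower in both knockout libraries of each table, and CDKN2A and CDKN2B, all under 4 FPKM, are higher.

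RB1, the brake on E2F factors, was at 7.75, 10.5 and 10.4 FPKM and then at 6.94, 8.07 and 8.54, just inside the threshold (+0.31 ± 0.09; limma adjusted p = 0.0498). E2F1, the activator it restrains, was just outside it at 22.8, 18.8 and 15.6 FPKM and then 26.4, 23.1 and 22.8 (-0.29 ± 0.09; adjusted p = 0.0539). RB1 passed in 3 of the 8 other settings that kept the table block and all libraries, and E2F1 came inside the threshold in 2 of them. With 1 library left out, RB1 passed in 0 of 6 fits. E2F3 lay between 12.0 and 14.7 FPKM (-0.05 ± 0.07; adjusted p = 0.626), and E2F2, not tested, between 0.157 and 1.48 FPKM.

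Of 17 other inhibitors, RB and E2F family members and subunits of the DREAM repressor complex, 1 was higher and 1 lower (11.8% called, beside 31.3% of all genes). CDKN1C, which encodes p57, had a log2 difference of -0.44 ± 0.11 (limma adjusted p = 0.0358), and LIN54, the DREAM subunit that binds the CHR, had +0.41 ± 0.10 (adjusted p = 0.0342). Of 23 p53 target genes other than CDKN1A, 2 were higher and 3 lower, with a median of -0.02. SESN2 and BTG2, both tied to growth arrest under stress, had +0.64 ± 0.13 and +0.46 ± 0.08, while the exonuclease gene AEN had -0.48 ± 0.06 and the growth arrest gene GADD45A -0.38 ± 0.05. The called share of these targets was 21.7%, beside 31.3% of all genes.

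The replication genes had the smallest called share of the 5 classes, with 3 of 10 (30.0%, near the 31.3% of all genes), 1 higher and 2 lower. The 6 MCM proteins form the ring-shaped helicase that opens DNA at origins, and MCM2 fell while most of the others did not pass the test. MCM2 was at 60.4, 46.5 and 45.4 FPKM in the first table, followed by 112, 84.8 and 78.6 in the second. Each knockout library held 0.700 to 0.770 of its WT library (-0.42 ± 0.05; limma adjusted p = 0.00373), while the second WT library was 1.86 times the first. TPRA1, which overlaps MCM2 on the opposite strand, was also lower, at 7.87 FPKM against 4.75 and 4.59 and at 8.86 against 4.94 and 5.46. MCM7 had a smaller difference, from 139 FPKM to 121 and 122 and from 172 to 149 and 153 (-0.19 ± 0.04; adjusted p = 0.0227), which was lost with any 1 library left out.

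The other 4 subunits gave differences from +0.02 to +0.11 that did not pass, with that of MCM6 at -0.010 once libraries were set to equal means. MCM3 was between 75.6 and 87.9 FPKM, MCM4 between 146 and 212, MCM5 between 67.0 and 84.9 and MCM6 between 27.6 and 38.0. MCM2 thus went from 11.3% to 9.13% and 8.23% of the summed FPKM of the 6 genes in the first table, and from 16.8% to 13.2% and 12.4% in the second, while the sum itself was 534 FPKM in WT against 509 and 552, and 668 against 643 and 632.

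CDC6, which loads the helicase onto origins, was the replication gene that rose, from 25.1 FPKM to 33.4 and 34.9 and from 22.3 to 25.5 and 29.1 (+0.35 ± 0.07; limma adjusted p = 0.0169). Every knockout library was above both WT libraries, but CDC6 passed in only 1 of the 6 fits with a library left out (adjusted p up to 0.125). CDT1, its partner in loading (20.2 to 37.0 FPKM), had +0.09 ± 0.06, and GMNN, the inhibitor of CDT1 (42.6 to 59.8 FPKM), had -0.17 ± 0.07 (adjusted p = 0.274 and 0.104). PCNA, the sliding clamp of the polymerases, was between 109 and 135 FPKM (-0.06 ± 0.04; adjusted p = 0.305). Of 47 other replication genes, 1 was higher (2.13%, beside 15.8% of all genes) and 7 lower (14.9%, beside 15.4%). Their median log2 difference was -0.13. The called genes with the largest differences were the polymerase delta subunits POLD2 (-0.32 ± 0.05) and POLD1 (-0.32 ± 0.05), thymidylate synthase TYMS (-0.27 ± 0.05) and the primase subunit PRIM1 (-0.26 ± 0.07), with limma adjusted p of 0.00732, 0.00861, 0.0150 and 0.0477.

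The mitosis genes gave 1 gene higher (12.5%) and 4 lower (50%) out of 8, beside 15.8% and 15.4% of all genes. Their summed level was 531 and 539 FPKM in WT and between 475 and 490.3 FPKM in the 4 knockout libraries, at 0.892 to 0.914 of the WT library of the same table. MKI67, whose product coats mitotic chromosomes and marks cycling cells, was at 25.9, 18.3 and 20.1 FPKM and then at 21.2, 16.2 and 16.8. The knockout libraries lay below both WT libraries (-0.38 ± 0.07; limma adjusted p = 0.0116). TOP2A, the topoisomerase that untangles chromosomes, was at 59.5, 48.0 and 47.7 and then at 46.6, 39.3 and 37.2 FPKM (-0.29 ± 0.05; adjusted p = 0.0128).

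CDC20, the activator of the anaphase-promoting complex, fell from 119.9 FPKM to 105 and 103 and from 116 to 91.2 and 95.9, again with no overlap (-0.26 ± 0.05; limma adjusted p = 0.0196), and passed in 1 of the 6 fits with a library left out. PLK1, a kinase of spindle assembly, was at 77.1, 69.8 and 71.4 FPKM and then at 111, 92.7 and 93.4, a difference close to the threshold (-0.19 ± 0.05; adjusted p = 0.0464) that was lost with any 1 library left out. The kinases BUB1 (23.1 to 35.1 FPKM), AURKA (50.0 to 56.2) and AURKB (94.2 to 108.9) gave -0.16 ± 0.07, -0.07 ± 0.06 and -0.14 ± 0.05 and did not pass (adjusted p of 0.147, 0.406 and 0.0848).

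BUB1B, which encodes the spindle checkpoint protein BUBR1, was the mitosis gene that rose, from 51.9 FPKM to 62.9 and 53.6 and from 56.2 to 77.0 and 66.9 (+0.25 ± 0.06; limma adjusted p = 0.0339). It passed in SNAI1_KO_1 alone and was lost with any 1 library left out. The readthrough transcript BUB1B-PAK6 shares its exons, was at 0.762 FPKM in the second WT library against 5.29 and 5.21, and was at or under 0.798 in the first table, so reads may have been split between them.

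Of 45 other mitosis genes, 14 were lower and 2 higher, so that 31.1% were called lower beside 15.4% of all genes and 4.44% called higher beside 15.8%. Their median log2 difference was -0.22. ESPL1, the protease that cuts cohesin at anaphase, fell from 29.3 FPKM to 19.8 and 21.7 and from 46.8 to 31.8 and 33.7 (-0.49 ± 0.06; limma adjusted p = 0.00332). CENPF, a kinetochore protein, was at 39.1, 30.9 and 23.9 and then at 32.8, 26.2 and 20.9 FPKM (-0.49 ± 0.06; adjusted p = 0.00358). NEK2, a centrosome kinase, had -0.45 ± 0.11, and NCAPD2, a condensin subunit, -0.44 ± 0.06 (adjusted p = 0.0332 and 0.00618). Without a mean-variance trend in the model, the number of these other mitosis genes called was 6 in place of 16, and the number of other replication genes was 2 in place of 8. With 1 library left out they numbered 3 to 7 and 0 to 4.

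**Figure D4:**
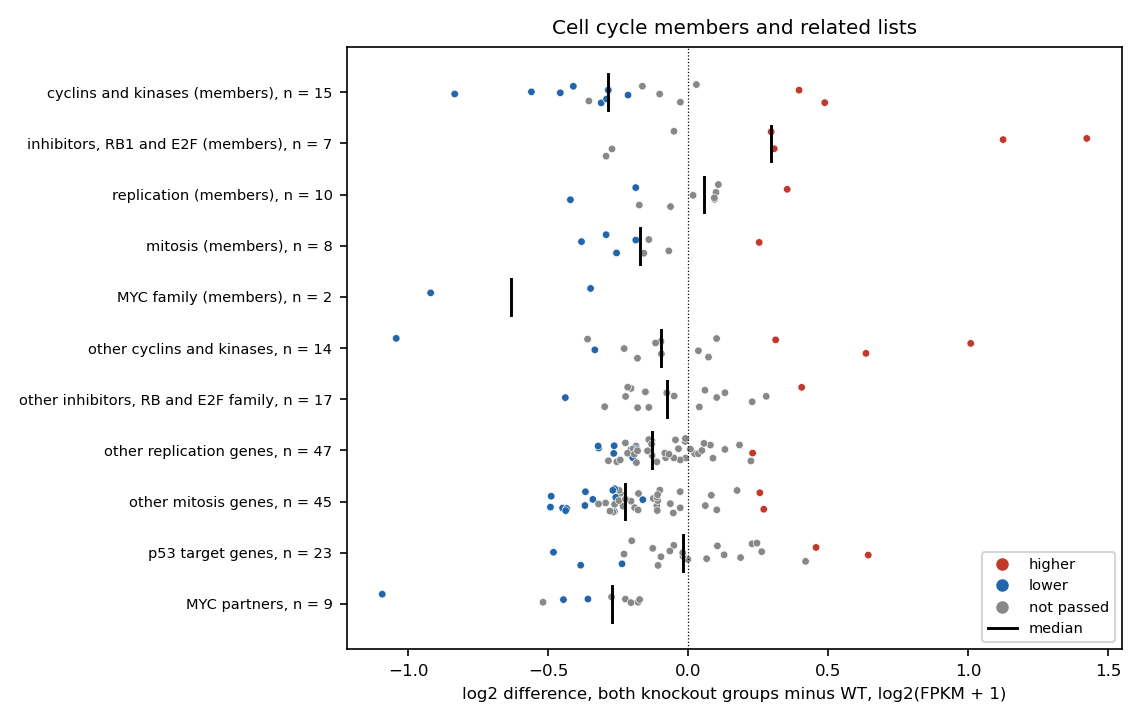
Log2 difference of both knockout groups minus WT, on the log2(FPKM + 1) scale, for each tested gene of the 5 classes and of 6 wider lists, with the median of each as a bar and n beside its name. The median lies at -0.22 for the other mitosis genes and at +0.30 for the inhibitors, RB1 and E2F members, and the replication genes lie around 0. The +0.30 includes CDKN2A and CDKN2B, which reached the level needed for testing only through the knockout libraries.

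The MYC family fell as a pair. MYCN, a growth-promoting factor of embryonic cells, was at 26.6, 11.7 and 12.3 FPKM in the first table, followed by 26.5, 15.1 and 15.5 in the second. The WT libraries of the 2 tables nearly coincided, and all 4 knockout libraries lay below them, at 0.439 to 0.586 of the level in their table (-0.92 ± 0.10; limma adjusted p = 0.00250). MYC was at 40.6, 32.5 and 30.1 FPKM and then at 64.2, 51.4 and 50.4 (-0.35 ± 0.05; adjusted p = 0.00812), so that within each table it held 0.741 to 0.801 of WT. Both were thus lower, and MYCN went from 39.5% of their summed FPKM to 26.4% and 28.98% in the first table and from 29.2% to 22.7% and 23.6% in the second. The antisense transcript MYCNOS lay between 1.11 and 2.03 FPKM in all libraries.

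Of 9 other members of the MYC network tested, 0 were higher and 3 lower, with a median of -0.27, and the called share of 33.3% was near the 31.3% of all genes. MXI1, a MAX partner that opposes MYC, fell from 8.84 FPKM to 4.24 and 4.76 and from 14.2 to 6.03 and 4.09 (-1.09 ± 0.18; limma adjusted p = 0.00963). MXD4, another antagonist, had -0.45 ± 0.09 and MAX, the shared partner, -0.36 ± 0.09 (adjusted p = 0.0162 and 0.0317). Of the 36 cell cycle genes with a promoter window, 15 were lower, 6 higher, 13 not passed and 2 not tested. Those with CACGTG numbered 9, of which 6 were lower, 0 higher, 2 not passed and 1 not tested. Those with the E2F letters numbered 14, with 4 lower, 1 higher, 8 not passed and 1 not tested. The 24 with a CCAAT box had 10 lower, 1 higher, 12 not passed and 1 not tested. The 10 with a CHR had 6 lower, 1 higher and 3 not passed, and the 6 with the SNAI1 E-box letters had 3 lower, 1 higher, 1 not passed and 1 not tested. These counts overlap, since a window can hold several elements, and no test was run on them. The share called among all genes with each element was not counted.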

How the data were processed

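The authors deposited 1 FPKM value (fragments scaled by length and library) per gene symbol and library, in 2 tables with 1 library of each group. Submitters' processing notes name RSEM, Bowtie, BWA and build hg19, without role. The heading naming FPKM stands in the second table only. The first table held 38100 gene rows and the second 58324, and whether both were processed alike is not stated. FPKM summed to 624414 to 633851 per library (first table) and 603399 to 605924 (second). Read totals are unknown, so no counting interval is given. Symbols repeated within a table (94 and 340) were left out.

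Values were tested as log2(FPKM + 1), for 13909 genes with a mean of at least 1 FPKM, with limma 3.58.1 (R 4.3.3; 3 group means, table as a block, mean-variance trend; 2 residual and 3.34 prior degrees of freedom). Two-sided tests were adjusted by Benjamini-Hochberg over all 13909, with a threshold of 0.05. The shared table pairs the libraries: between-table differences of the groups correlated across genes, which are not independent replicates, at r of 0.616, 0.666 and 0.676. The code was tested on simulated data. All 44 members are reported, with SNAI1 and up to 4 called genes per wider list with the largest differences. The members and lists were chosen with earlier results of these data known. Promoter windows and overlapping genes (GENCODE release 29) were matched by symbol. Fits without the block, without the trend or of the compared groups only, other scalings, filters and pseudocounts, and leaving out each library were alternatives.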

Additional observations from a re-analysis of the deposited data

How the results depend on the processing

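The block for the table decided most calls. With no replicate block, which ignores the pairing of libraries by table, 3, 1 and 1 cell cycle genes were called in both knockout groups, SNAI1_KO_1 and SNAI1_KO_2 against WT (in place of 24, 16 and 19), and 1065, 576 and 698 of all genes (in place of 4348, 3327 and 3549), of which 71.9%, 75.5% and 74.6% were higher in place of 50.6%, 54.4% and 53%. With no filter on low values, the counts were 12, 5 and 5 cell cycle genes and 2139, 1008 and 1216 genes of 30248 tested. With no mean-variance trend, 17, 8 and 10 cell cycle genes were called. Counts over all genes are not set beside these, so the drop is not read as particular to cell cycle genes. With 1 library left out, the cell cycle genes called numbered 6 to 14, 2 to 13 and 3 to 13, and all genes 1728 to 2840, 962 to 2379 and 1135 to 2693. The lowest counts for both groups, 6 and 6 cell cycle genes, came without either WT library. A group left with 1 library was assumed to vary like the others. Between the knockout groups the count stayed at 0 in each setting run. Pseudocounts of 0.1 and 10, a mean of at least 5 FPKM, quantile normalization, median-ratio scaling and equal library means left 22 to 24 cell cycle genes called for both groups. With 1 library left out, the other cyclins and kinases called numbered 1 to 4 in place of 5, other inhibitors, RB and E2F family 0 to 1 in place of 2, p53 targets 1 to 5 in place of 5 and MYC partners 0 to 3 in place of 3. For that contrast the fit of only the groups compared is the fit as reported and gave no further value.

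Of the 24 called genes, 11 passed in each alternative that kept the block and all libraries and in which they were tested. These were CCNA2, CCNB1, CCND3, CDK1, CDKN2A, CDKN2B, MCM2, MKI67, TOP2A, MYC and MYCN. CDKN2A and CDKN2B were tested in 7 of these alternatives and the others in 8. A mean of at least 5 FPKM left CDKN2A and CDKN2B out. Over 627 alternative values for 42 genes, 488 kept direction and call, 127 lost the call, 3 gained it (E2F1) and 9 changed sign, none of a called gene. MCM6 had -0.010 with equal library means, and with 1 library left out CCNB2 ran from -0.043 to +0.101, CDK2 from -0.104 to +0.048 and MCM6 from -0.049 to +0.083. The cause of these changes was not tested.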
